A study of Mus musculus with 6 samples.

Results

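The guanylate-binding proteins are a family of large GTPases whose genes are switched on by interferons. In the mouse their genes lie in one cluster on chromosome 3 and another on chromosome 5. The 9 members described here are Gbp2, Gbp2b, Gbp3, Gbp4, Gbp5, Gbp6, Gbp7, Gbp8 and Gbp9, chosen by gene symbol among the 55401 genes of the deposited count matrix. Of these, 5 lie on chromosome 3 and 4 on chromosome 5. They were measured by RNA sequencing in cells that were isolated from the brain with magnetic beads against CD11b, an integrin chain found on microglia and on other myeloid cells. The libraries came from untreated MRL/lpr and MRL/mpj mice at an age of 6 weeks, with 3 libraries per strain. The lpr mutation of Fas causes a lupus-like disease in MRL/lpr mice, and the MRL/mpj controls have the MRL background without lpr. The labels do not say how many animals gave a library, so the p-values below measure the spread between libraries, which may be partly technical. Because the cells were sequenced in bulk, a change in the RNA per cell and a change in the share of a cell type cannot be told apart.

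Guanylate-binding proteins bind and hydrolyse GTP, assemble on the membranes of bacteria and of the vacuoles that hold intracellular pathogens, and help to open these compartments. They also promote the caspase-11 and AIM2 inflammasomes, the cytosolic complexes that start inflammatory cell death. Both interferon gamma and type I interferons are known to induce them. Interferon regulatory factors such as IRF1 and IRF9 act at a promoter element called the interferon-stimulated response element (ISRE), and another element of interferon-induced promoters is the gamma-activated sequence (GAS). In microglia, as in other macrophages, these genes are widely used as readouts of interferon exposure.

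Total counts per library ran from 45481609 to 49846634. Microglial markers were present in each library, with a summed level of 9 markers of 21720 to 24226 CPM (counts scaled to a common library size with TMM factors) in MRL/lpr microglia and 24007 to 24725 CPM in MRL/mpj microglia. Of these markers, 1 of 9 was lower in MRL/lpr microglia and none was higher by the edgeR quasi-likelihood test after Benjamini-Hochberg adjustment. Across all tested genes 9.06% were lower and 11.1% were higher by that test. At an unadjusted p under 0.05 the marker counts were 2 lower and 0 higher. DESeq2 called 2 markers lower and 0 higher, and limma called 3 lower and 0 higher. Cx3cr1, which enters this sum, was uneven, since its counts were 10645, 132706 and 10334 in MRL/lpr microglia and 27912 to 29349 in MRL/mpj microglia. MRL/lpr replicate 3 stood apart in that the gene CT010467.1 took 6.38% of its counts, against 0.169% to 0.458% in the other libraries. Xist had 8886 to 11319 counts in MRL/lpr microglia and 27 to 38 counts in MRL/mpj microglia, while 4 Y chromosome genes together had 8408 to 15046 counts in each of the 6 libraries. The labels give no sex, and the paper's methods describe female mice, which the Y chromosome counts do not match. MRL/mpj microglia had almost no Xist, while MRL/lpr microglia had both Xist and Y chromosome counts. Strain and sex thus cannot be told apart in these libraries. This holds for each strain difference below. Fas, the mutated gene, had between 282 and 461 counts per MRL/lpr library and between 362 and 432 per MRL/mpj library, which cannot show whether the transcripts were mutant or intact.

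The promoters of the chromosome 3 members are shown first because each of them held the core of an interferon-stimulated response element. Promoter sequences for 5 of the 9 members were taken from RefSeq (GRCm38.p6), as the 180 bases before the annotated start of transcription. The capitals mark the ISRE core, searched on both strands as GAAA, any 2 bases and GAAA, in a window from 250 bases before to 50 bases after the start. In all 5 genes the core lay on the strand opposite to the gene, so it reads as the reverse complement in the lines below.
Gbp3, chr3:142559864-142560043, + strand: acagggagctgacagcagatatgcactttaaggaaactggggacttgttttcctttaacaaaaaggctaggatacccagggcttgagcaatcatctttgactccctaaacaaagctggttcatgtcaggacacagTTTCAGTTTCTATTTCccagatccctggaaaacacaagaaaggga
Gbp2, chr3:142620483-142620662, + strand: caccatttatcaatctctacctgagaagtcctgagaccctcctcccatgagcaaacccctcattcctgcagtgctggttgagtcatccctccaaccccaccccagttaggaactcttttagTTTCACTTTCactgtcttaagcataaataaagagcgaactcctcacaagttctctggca
Gbp7, chr3:142530156-142530335, + strand: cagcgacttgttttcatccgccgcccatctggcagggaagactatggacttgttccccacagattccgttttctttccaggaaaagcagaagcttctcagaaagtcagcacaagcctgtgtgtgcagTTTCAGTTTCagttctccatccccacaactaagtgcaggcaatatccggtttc
Gbp5, chr3:142496754-142496933, + strand: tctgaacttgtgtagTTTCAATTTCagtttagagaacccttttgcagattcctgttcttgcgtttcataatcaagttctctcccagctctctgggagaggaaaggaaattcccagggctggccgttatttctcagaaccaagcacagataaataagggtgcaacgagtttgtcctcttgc
Gbp2b, chr3:142594667-142594846, + strand: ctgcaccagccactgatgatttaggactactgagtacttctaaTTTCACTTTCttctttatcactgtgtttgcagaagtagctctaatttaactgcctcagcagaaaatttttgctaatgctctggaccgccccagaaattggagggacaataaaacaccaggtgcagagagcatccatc
The core occurred in 3.99% of all genes with a RefSeq promoter window of the same length. Gbp3 held a pair of overlapping cores, and the 4 other genes held 1 each. A second RefSeq start of Gbp3, further downstream, had no core in its window. The first base of the core lay 45 bases before the start in Gbp3, 53 in Gbp7, 59 in Gbp2, 137 in Gbp2b and 165 in Gbp5. The gamma-activated sequence, searched as TTCNNNGAA, occurred in 9.55% of genes, and 2 matches each were found in Gbp5 and Gbp7 and none in Gbp3, Gbp2 or Gbp2b. These matches describe the letters of the C57BL/6J reference, not of the MRL strains, and no binding was measured. Promoters of Gbp4, Gbp6, Gbp8 and Gbp9 were not analysed here.

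To compare the family between the strains, each member was tested together with the 19554 genes that had enough counts. All 9 members passed the filter on low counts. In the MRL/lpr libraries 7 members rose and none fell (edgeR quasi-likelihood test, Benjamini-Hochberg adjusted p below 0.05). Across all tested genes 11.1% were higher and 9.06% were lower by this rule, that is 2178 and 1772 genes. Scaled by library size only, 1634 genes were higher and 2790 lower, and the members called were still 7 and 0. The 7 members were Gbp3, Gbp6, Gbp8, Gbp4, Gbp2, Gbp7 and Gbp9, in order of their increase. DESeq2 and limma also called 7 higher and 0 lower, and at an unadjusted p under 0.05 edgeR gave 0 lower. With the additional minimum of 1 for the log2 fold change that the study used, 6 members were upregulated, and 4.67% of the tested genes met that rule. The median log2 fold change of the 9 members was 1.33, and that of all tested genes was -0.01. In each of the 7 members that rose, each MRL/lpr library was above each MRL/mpj library, as was so for 19.6% of the tested genes. In each of the 7, MRL/lpr replicate 3 had the lowest CPM of its strain. Without that replicate all 7 were still called.

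**Figure D1:**
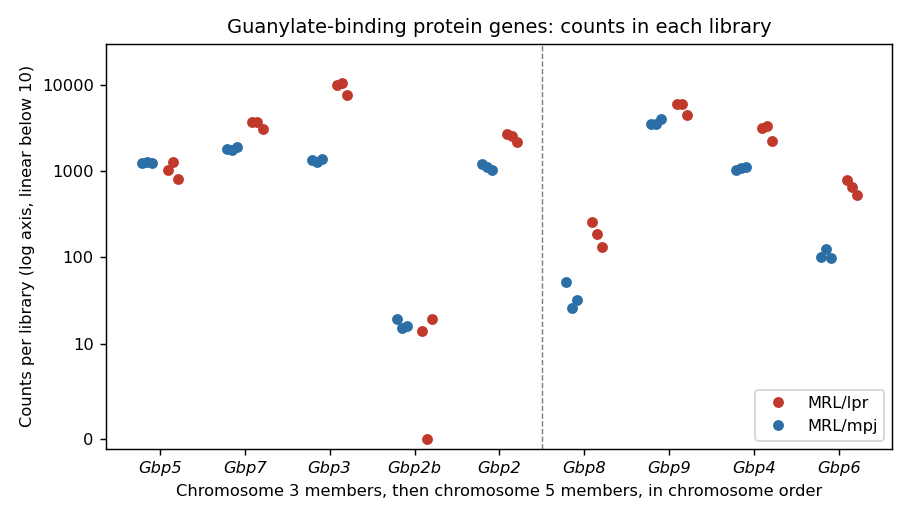
Raw counts of each member (vertical axis, logarithmic above 10 counts and linear below) in each of the 3 MRL/lpr libraries (red) and 3 MRL/mpj libraries (blue), with chromosome 3 members left of the dashed line and chromosome 5 members right of it. The red points lie above the blue points in 7 members, while Gbp5 and Gbp2b overlap.

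On chromosome 3, Gbp3 (ENSMUSG00000028268, chr3:142560026-142573209, + strand, GENCODE M21 on GRCm38) had the largest increase of the family. Its counts were 10114, 10505 and 7744 in MRL/lpr microglia and 1367, 1293 and 1386 in MRL/mpj microglia. The lowest MRL/lpr count was thus several times the highest MRL/mpj count. In CPM, Gbp3 reached 208 ± 20.0 (SD, n = 3) in MRL/lpr microglia and 26.4 ± 0.436 (SD, n = 3) in MRL/mpj microglia. The increase was 7.88-fold, or 2.98 ± 0.09 as log2 fold change and its standard error (adjusted p = 1.06e-07).

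Gbp2 (ENSMUSG00000028270, chr3:142620602-142638008, + strand), a member that is anchored to membranes by a lipid tail and takes part in AIM2 activation, had 2702, 2597 and 2157 counts in MRL/lpr microglia. The MRL/mpj libraries had 1197, 1111 and 1021 counts. The groups were well separated, and the increase was 2.52-fold, or 1.33 ± 0.10 as log2 fold change and its standard error (adjusted p = 1.49e-05). Gbp7 (ENSMUSG00000040253, chr3:142530342-142550149, + strand), which has been linked to assembly of the phagocyte oxidase, had 3702, 3773 and 3086 counts against 1814, 1763 and 1932 counts. Its increase was 2.16-fold, or 1.11 ± 0.08 as log2 fold change and its standard error (adjusted p = 1.18e-05). An annotated processed pseudogene that overlaps Gbp7 on the same strand, Gm43802, shared 8.77% of the stretches of read length, 150 bases, of Gbp7 transcripts, and had 4 to 8 counts per library.

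Gbp5 (ENSMUSG00000105504, chr3:142493978-142522344, + strand), a prenylated member that has been linked to the NLRP3 inflammasome, did not follow these neighbours. It had 1023, 1264 and 804 counts in MRL/lpr microglia and 1242, 1290 and 1250 counts in MRL/mpj microglia. The groups overlapped in CPM, with 1 MRL/lpr library above and 2 below the MRL/mpj libraries. The log2 fold change of Gbp5 was -0.12 (SE 0.13, adjusted p = 0.574), and its 95% interval ran from -0.42 to 0.17. This interval did not reach the interval of any of the 7 members that rose, of which the lowest began at 0.53 for Gbp9. In CPM, Gbp5 was at 22.6 ± 3.88 (SD, n = 3) in MRL/lpr microglia and at 24.7 ± 0.989 (SD, n = 3) in MRL/mpj microglia.

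Gbp2b (ENSMUSG00000040264, chr3:142594847-142619179, + strand), the gene long known as mouse Gbp1, was close to the limit of detection. It had 14, 0 and 19 counts in MRL/lpr microglia and 19, 15 and 16 counts in MRL/mpj microglia. A library's genes with 4 counts outnumbered those with 3 or 5 counts several times (1234 against 377 and 254 in MRL/lpr replicate 1), so these counts may rest on only a few read pairs. The log2 fold change of Gbp2b was -0.38 with a 95% interval from -2.89 to 2.13 (adjusted p = 0.862), which covers both a fall and a rise as large as that of Gbp2, so that a difference was not detectable at this depth.

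**Figure D2:**
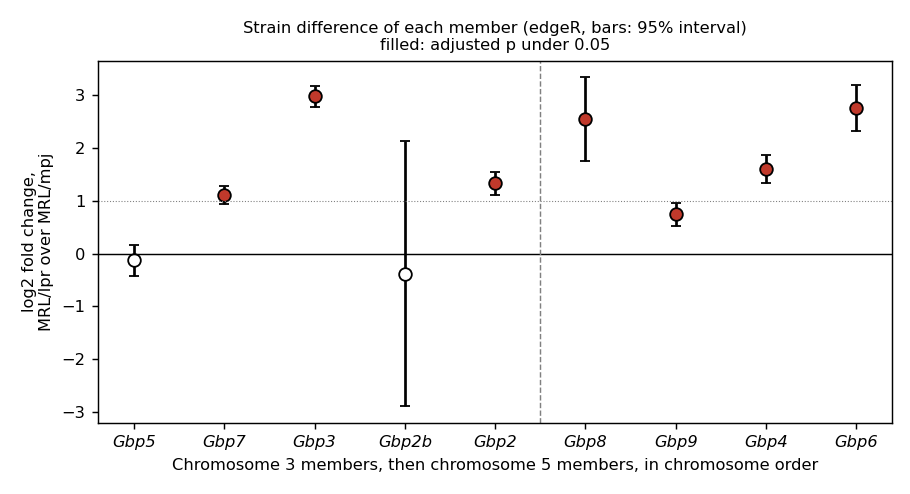
The log2 fold change of each member between the strains (vertical axis, MRL/lpr over MRL/mpj, points) with its 95% interval (bars), in chromosome order with the dashed line between chromosomes 3 and 5 and a grey line at a log2 fold change of 1. The filled points (adjusted p-value under 0.05) range from 0.74 for Gbp9 to 2.98 for Gbp3, and the open points are Gbp5 and Gbp2b.

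On chromosome 5 all 4 members rose, although Gbp6 shares much of its sequence with its neighbours. Gbp9 (ENSMUSG00000029298, chr5:105077630-105139539, - strand) had the highest FPKM (counts per gene length and depth) of the members in MRL/mpj microglia and the smallest increase of those that rose. It had 6017, 6007 and 4446 counts in MRL/lpr microglia and 3520, 3490 and 4043 counts in MRL/mpj microglia. The increase was 1.68-fold, or 0.74 ± 0.09 as log2 fold change and its standard error (adjusted p = 0.000488), and Gbp9 was the only one of the 7 below the minimum fold. Gbp4 (ENSMUSG00000079363, chr5:105115767-105139586, - strand), reported to restrain the interferon factor IRF7, had 3156, 3338 and 2218 counts against 1040, 1080 and 1114 counts. Its increase was 3.02-fold, or 1.60 ± 0.12 as log2 fold change and its standard error (adjusted p = 1.59e-05).

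Gbp8 (ENSMUSG00000034438, chr5:105014150-105139540, - strand) had the lowest FPKM of the members that rose. It had 254, 188 and 132 counts in MRL/lpr microglia and 52, 26 and 32 counts in MRL/mpj microglia. The increase was 5.83-fold, or 2.54 ± 0.35 as log2 fold change and its standard error (adjusted p = 0.000859), and its 95% interval from 1.75 to 3.34 was the widest of those that rose. In the annotation the genes of Gbp8, Gbp9 and Gbp4 overlap on the same strand. Their shared exon bases came to 60 or 61 per pair, at most 1.77% of the exon length of a gene, and none of these 3 genes shared more than 0.0254% of its stretches of read length with another gene.

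Gbp6 (ENSMUSG00000104713, chr5:105270702-105293698, - strand), a member with antimicrobial activity in macrophages, had 786, 652 and 528 counts in MRL/lpr microglia and 100, 126 and 98 counts in MRL/mpj microglia. In CPM this was 14.4 ± 2.10 in MRL/lpr and 2.12 ± 0.351 in MRL/mpj microglia (mean ± SD of 3 libraries each). The increase was 6.80-fold, or 2.77 ± 0.19 as log2 fold change and its standard error (adjusted p = 1.2e-05). However, 59.1% of the stretches of read length in Gbp6 transcripts also occurred in transcripts of other genes, mainly in Gm43302, an annotated gene that shares exons with Gbp6 and with the neighbouring Gbp10. How reads were divided among these genes is not known. Gbp10, which is no member of the list, had 202, 335 and 166 counts in MRL/lpr microglia and 56, 47 and 26 counts in MRL/mpj microglia, or 2.60 ± 0.37 as log2 fold change and its standard error (adjusted p = 0.000973). Gm43302 had 452, 110 and 350 counts against 211, 180 and 151 counts and was not called (log2 fold change 0.94, adjusted p = 0.231). In MRL/lpr replicate 2 Gm43302 had its lowest count of the 6 libraries and Gbp10 its highest. Summed over the 3 genes, the counts were 1440, 1097 and 1044 in MRL/lpr microglia and 367, 353 and 275 in MRL/mpj microglia. The sum rose 4.05-fold, or 2.02 ± 0.16 as log2 fold change and its standard error (adjusted p = 2.96e-05), a smaller increase than that of Gbp6 alone. Gbp11, annotated as a polymorphic pseudogene, had at most 32 counts in a library and was not tested, and the pseudogene Gbp2-ps had 0 counts in each library.

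Levels were then compared between genes as deposited FPKM, which divides the counts by gene length. In the MRL/mpj libraries Gbp9 led with 12.9 ± 0.895 FPKM (SD, n = 3). Gbp2 followed with 8.03 ± 0.691 FPKM and Gbp3 with 7.50 ± 0.124 FPKM, and the ranges of these 2 genes overlapped. Gbp7 at 5.94, Gbp5 at 3.46 and Gbp4 at 2.62 FPKM came next, each below the range of the gene before it, and Gbp6, Gbp8 and Gbp2b were at most 0.390 FPKM in each library. In the MRL/lpr libraries Gbp3 stood first, at 54.6 ± 6.84 FPKM (SD, n = 3). Gbp9 at 20.0 ± 2.64 FPKM and Gbp2 at 18.6 ± 1.55 FPKM followed with overlapping ranges. Gbp7 reached 11.8 and Gbp4 7.29 FPKM, while Gbp5 at 2.92 and Gbp6 at 2.07 FPKM overlapped. The order of the leading genes thus differed between the strains, with Gbp9 first in one and Gbp3 first in the other.

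As a share of the summed FPKM of the 9 members, Gbp3 made up 18.0% to 18.5% in MRL/mpj microglia and 45.7% to 46.8% in MRL/lpr microglia. The share of Gbp9 was 30.1% to 33.6% in MRL/mpj microglia and 16.6% to 17.2% in MRL/lpr microglia. Gbp5 had 8.11% to 8.85% and 2.28% to 2.76%, in the same order. The share of Gbp4 overlapped between the strains, at 6.14% to 6.55% and 5.70% to 6.47%. Shares within a library do not depend on how the libraries are scaled. Within the MRL/lpr strain the shares of the leading genes lay close together even though MRL/lpr replicate 3 had fewer counts of each.

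**Figure D3:**
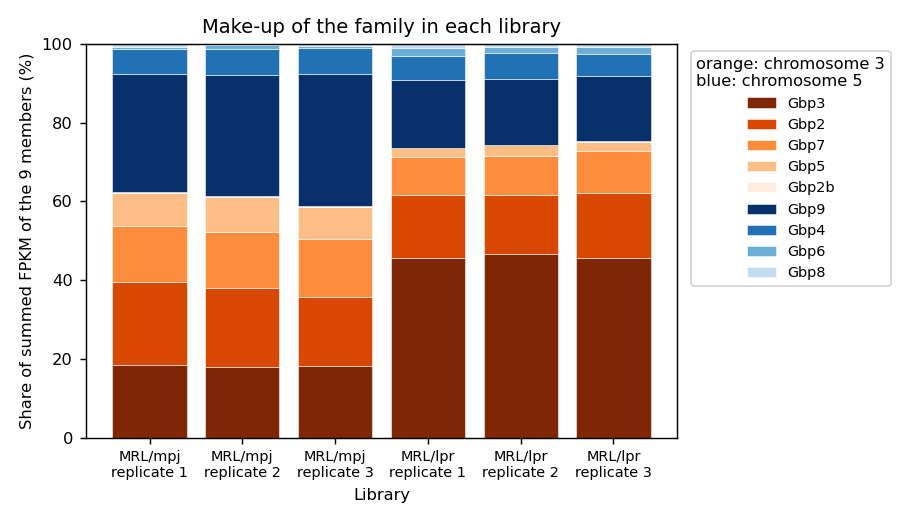
Share of the summed FPKM of the 9 members (vertical axis, percent) held by each member in each of the 6 libraries (bars), with chromosome 3 members in orange and chromosome 5 members in blue. Gbp3 fills 18.0% to 18.5% of the bars of MRL/mpj microglia and 45.7% to 46.8% of those of MRL/lpr microglia.

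Next, the chromosome 3 and chromosome 5 members were compared. On chromosome 3, 3 of 5 members rose, with a median log2 fold change of 1.11 over the 5. On chromosome 5, 4 of 4 rose, with a median of 2.07. Neither cluster had a member that fell. The fold differences of the summed levels were ordered the other way. The chromosome 3 members together had 373, 385 and 330 CPM in MRL/lpr microglia and 110, 109 and 108 CPM in MRL/mpj microglia, a 3.33-fold difference of the means. The chromosome 5 members together had 217, 216 and 175 CPM against 91.7, 94.5 and 102 CPM, a 2.12-fold difference of the means. The log2 ratio of the summed counts of chromosome 5 to those of chromosome 3 was -0.78, -0.83 and -0.92 in MRL/lpr microglia and -0.26, -0.21 and -0.08 in MRL/mpj microglia. All MRL/lpr ratios lay below the MRL/mpj ratios, by 0.66 between the means. These sums over chosen members were given no test.

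Gbp9 on chromosome 5 and Gbp3 on chromosome 3 had the highest CPM of their clusters over all 6 libraries, although within MRL/mpj microglia Gbp7 had more counts than Gbp3. In FPKM, Gbp9 exceeded Gbp3 in each MRL/mpj library, with log2 ratios of 0.70, 0.77 and 0.88. It was below Gbp3 in each MRL/lpr library, with log2 ratios of -1.41, -1.47 and -1.46. These are the members with the smallest increase of their cluster on chromosome 5 and the largest on chromosome 3. The ratio is therefore given as a description, and the permutation test planned for it was not used. With both genes left out, the log2 ratio of the remaining chromosome 5 members to the remaining chromosome 3 members was -0.83, -0.87 and -1.08 in MRL/lpr microglia. In the MRL/mpj libraries it was -1.84, -1.76 and -1.76, a difference of 0.86 between the means. Leaving out these members favours chromosome 5 by construction, so this value shows only how much of the summed difference they carried. The mean of the members' log2 fold changes also favoured chromosome 5, at 1.91 against 0.98. The spread within each cluster was wide, from 0.74 to 2.77 on chromosome 5 and from -0.38 to 2.98 on chromosome 3, and the ranges overlapped.

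**Figure D4:**
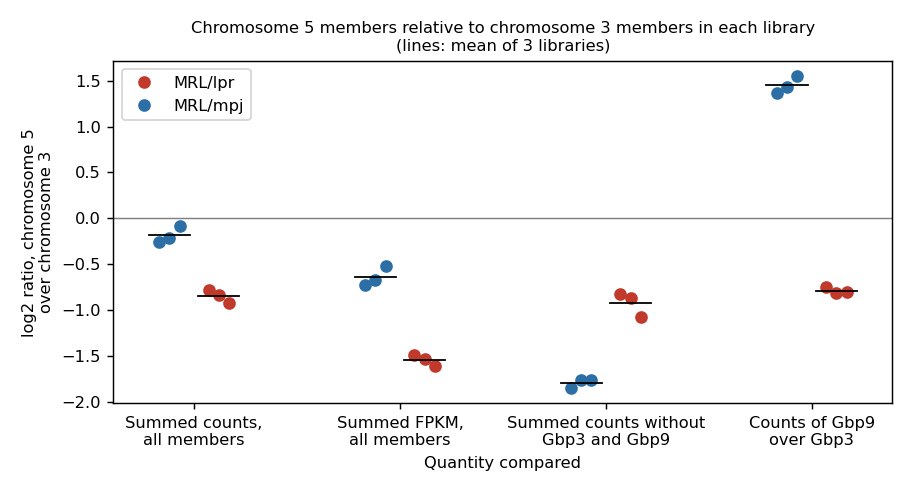
The log2 ratio of chromosome 5 members to chromosome 3 members (vertical axis) in each MRL/lpr library (red) and MRL/mpj library (blue), for summed counts, summed FPKM, summed counts without Gbp3 and Gbp9, and Gbp9 over Gbp3 alone. Lines mark the means of 3 libraries, and the MRL/lpr points lie below the MRL/mpj points except where Gbp3 and Gbp9 are left out.

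To see how the genes around the clusters behaved, the 5 nearest tested genes on each side of each cluster were examined. They lay up to 3419 kb from the chromosome 3 cluster and up to 569 kb from the chromosome 5 cluster. Of these 20 genes, 1 was higher and 3 were lower in MRL/lpr microglia, where 20.2% of all tested genes were called in either direction. Abcg3, a transporter gene 31.4 kb from Gbp8, had a log2 fold change of 2.38 (SE, the standard error, 0.33, adjusted p = 0.000884), with 153, 113 and 139 counts against 34, 21 and 33 counts. On the other side of the chromosome 5 cluster, Lrrc8b, which encodes a subunit of a volume-regulated anion channel, fell by 0.90 (SE 0.10, adjusted p = 0.000186). Beside the chromosome 3 cluster, Kyat3, a kynurenine aminotransferase gene 63.0 kb from Gbp2, fell by 1.31 (SE 0.27, adjusted p = 0.0077). Bmpr1b, which encodes a bone morphogenetic protein receptor, was not counted in MRL/lpr microglia (0 counts in all 3) but had 19, 26 and 19 counts in MRL/mpj microglia (adjusted p = 0.0135). Like those of Gbp2b, these low counts may rest on only a few read pairs. The other 16 were not called. Among the 10 flanking genes of chromosome 3, 2 were lower and none was higher by edgeR, with 4 lower and 0 higher at an unadjusted p under 0.05 and 3 lower and 0 higher by DESeq2.

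**Figure D5:**
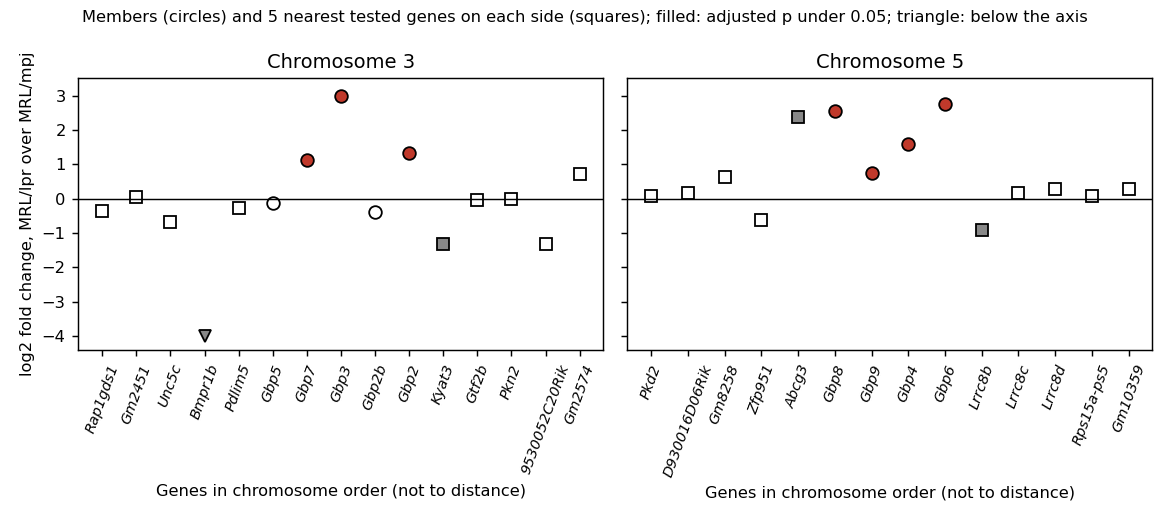
The log2 fold change between the strains (vertical axis, MRL/lpr over MRL/mpj) of the members (circles) and of the 5 nearest tested genes on each side (squares), in chromosome order and not to distance. Filled symbols have an adjusted p-value under 0.05, and the triangle at the lower edge, not to scale, marks Bmpr1b, which had 0 counts in each MRL/lpr library. Among the 20 neighbours 4 are filled, and Abcg3, beside Gbp8, is the one that rose.

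The pathway around the family was described from lists of genes. Of 18 interferon signalling genes, 6 were higher and 2 were lower in MRL/lpr microglia, and their median log2 fold change was 0.31. For this list and the lists below, the shares over all tested genes were 11.1% higher and 9.06% lower. Usp18, which dampens type I interferon signalling and is itself interferon-induced, rose by 2.72 on the log2 scale (adjusted p = 1.48e-06), and Stat2 rose by 1.21 (adjusted p = 0.000126). Irf9, a factor of the type I interferon response, rose by 0.64 (adjusted p = 0.00519). The 2 lower genes were Ifngr1, the ligand-binding chain of the interferon gamma receptor, which fell by 0.76 (adjusted p = 5.22e-05), and Ifnb1, the gene of interferon beta, which fell by 0.63 (adjusted p = 0.0336). Ifng had 64, 71 and 26 counts against 5, 26 and 31 counts and was not called (log2 fold change 1.52, adjusted p = 0.159). Irf1 was not called either, with 7118, 7020 and 4967 counts against 6555, 3163 and 3567 counts (log2 fold change 0.69, adjusted p = 0.194).

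The immunity-related GTPases, the smaller interferon-induced GTPases that act with this family on pathogen vacuoles, moved the same way. Of 8 genes, 7 rose and none fell, with a median log2 fold change of 1.62. DESeq2 called 7 higher and 0 lower, limma 6 and 0, and at an unadjusted p under 0.05 edgeR gave 7 and 0. The exception was Irgm2, chosen for naming after its values were seen, with 460, 1804 and 1398 counts against 616, 738 and 599 counts (adjusted p = 0.238). The largest increases were those of Tgtp2 and Tgtp1, close relatives whose reads could have been split, with 2.55 and 2.41 on the log2 scale (adjusted p = 9.3e-07 and 1.87e-06). Among 9 inflammasome genes, 4 were higher and 1 was lower, with a median of 0.66. DESeq2 called 6 higher and 1 lower, limma 4 and 1, and at an unadjusted p under 0.05 edgeR gave 7 and 1. Nlrp3 rose by 1.20 (adjusted p = 0.00467) and Casp4, the gene of caspase-11, by 1.04 (adjusted p = 0.000376). Pycard, which encodes the adaptor ASC, fell by 1.56 (adjusted p = 5.57e-06), with 1189, 977 and 992 counts against 3617, 3434 and 3489 counts.

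Several members carry a lipid tail added by prenylation enzymes, and the ATG conjugation system helps to bring the family to vacuoles. None of 6 prenylation genes was called by edgeR, by DESeq2 or by limma, and 0 had an unadjusted p under 0.05 in edgeR's test. Their log2 fold changes ran from -0.23 to 0.09. Of 11 ATG conjugation genes, 1 was higher, Map1lc3a with a log2 fold change of 0.53 (adjusted p = 0.0151), and 0 were lower. At an unadjusted p under 0.05 edgeR gave 2 higher and 0 lower, and DESeq2 and limma each called 1 higher and 0 lower.

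Markers of other cells were examined beside these results. Of 7 T cell markers, 5 were higher in MRL/lpr microglia and none was lower by edgeR or DESeq2, and their summed level was 15.2 to 20.9 CPM against 5.52 to 6.25 CPM. Of 5 NK cell markers, 4 were tested and 2 of them were higher, with sums of 6.89 to 7.37 CPM against 2.56 to 3.62 CPM. Plasma cell markers had 2 of 5 higher and sums of 25.5 to 28.5 CPM against 12.8 to 13.6 CPM. Neutrophil markers had 3 of 5 higher, with sums of 560 to 639 CPM against 435 to 496 CPM. Their increases were small, from 1.16-fold for S100a9 to 1.37-fold for Camp. At an unadjusted p under 0.05 edgeR gave 5 neutrophil markers higher, while DESeq2 called 3 and limma 1. Endothelial markers had 1 higher and 1 lower of 5, with sums of 1271 to 1448 CPM against 1199 to 1232 CPM, and monocyte markers had 1 higher and 1 lower, with 77.7 to 90.5 CPM against 89.5 to 98.3 CPM. B cell and dendritic cell markers had 0 called by edgeR (2 and 3 at an unadjusted p under 0.05, 1 and 0 by DESeq2), with overlapping sums, 9.20 to 10.5 CPM for B cells in MRL/lpr microglia against 8.43 CPM and more, and for dendritic cells 19.6 to 23.9 CPM against 16.9 to 20.3 CPM. Border macrophage, astrocyte, oligodendrocyte and neuron markers had 2, 1, 2 and 2 of 5 lower and none higher after adjustment. At an unadjusted p under 0.05 edgeR gave these markers 3, 1, 2 and 3 lower and 1, 1, 0 and 0 higher. Their sums were 29.8 to 34.6, 89.0 to 132, 84.0 to 99.3 and 10.3 to 13.7 CPM in MRL/lpr microglia and 40.8 to 46.3, 167 to 170, 123 to 152 and 23.1 to 25.9 CPM in MRL/mpj microglia. No marker was at 3 or fewer counts in each of the 6 libraries. The 9 members together reached 506 to 602 CPM in MRL/lpr microglia and 201 to 209 CPM in MRL/mpj microglia. The marker sums do not show how much RNA of the members those other cells held. The part of other cells in the increase of the members was not tested.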

How the data were processed

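Per the labels, total RNA was depleted of ribosomal RNA and made into stranded libraries, while the paper's methods describe purified mRNA. The authors trimmed the reads with cutadapt 1.9.3 and aligned them with HISAT2 2.0.4 to GRCm38, as the submitters' processing notes name them. The authors deposited raw counts for each Ensembl gene and, for each library, FPKM, in which counts are divided by gene length and depth. The notes also name Cufflinks and Cuffdiff 2.2.1 without a role, and the counting tool is not given in the sources used here. Gene symbols and positions came from GENCODE M21 (GRCm38), which matched 55141 of 55401 identifiers.

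Counts were tested in R 4.3.3 with edgeR 4.0.16 without covariates: filterByExpr at its defaults (minimum count 10, minimum total 15), TMM scaling, robust dispersions and the quasi-likelihood test, with Benjamini-Hochberg adjustment over 19554 genes. The 95% intervals came from the same fit. Levels were compared between genes as FPKM, while sums and ratios of counts or CPM over members served to compare the strains. A planned permutation test of the Gbp9 to Gbp3 ratio was not used, because the choice of these members fixed its direction. Depth limited precision for genes with few counts, and intervals cover the spread between libraries. The procedure was tested on simulated data, and it does not call each gene that differs, so a gene not called may still differ. The alternatives were DESeq2 1.42.0, limma 3.58.1 on log2(FPKM + 0.1), other scalings, filters and dispersions, counts divided by 4, a test against the minimum fold, a replicate block and each library left out. The members and gene lists were chosen with earlier results of these data known. Named genes are the members, other Gbp genes, the flanking genes, the called genes of largest change in each list (at most 2 per direction) and the 5 genes most alike in pattern. Gm43302 and Gm43802 were named because they overlap members, and Irf9, Ifng, Irf1, Irgm2, Cx3cr1, Xist, Fas and CT010467.1 after their values were seen. A gene of the lists is not reported here. Same-numbered libraries of the strains did not deviate together, with correlations across genes from -0.04 to -0.02.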

Additional observations from a re-analysis of the deposited data

How the results depend on the processing

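The 7 members called higher were 7 in each of the 15 alternatives tried, and the number lower was 0 in each. With the minimum fold the count was 5 with scaling by library size only, with limma on FPKM and with glmTreat's test against that minimum, and 6 otherwise. Scaling by library size only moved the median log2 fold change of all tested genes from -0.01 to -0.13 and called 1634 genes higher and 2790 lower, against 2178 and 1772 in the analysis reported. The test against the minimum fold gave 379 and 237, and leaving out MRL/mpj replicate 1 gave 1177 lower. Scaled by library size only, the called flanking genes were 7 in place of 4, and the cause was not tested. The log2 fold change of Gbp2b turned to 0.20 without MRL/lpr replicate 2, which had 0 counts of it, and ran from -1.11 to 0.20 with each library left out. Gbp2b gave no value with the stricter filter or with counts divided by 4, since it was not tested there. The chromosome 5 to chromosome 3 difference of -0.66 was -0.90 with FPKM, 0.86 without Gbp3 and Gbp9 and 0.93 as a mean over members. ATG conjugation genes called higher were 1 as reported, 2 with at least 50 counts in 3 libraries and with counts divided by 4, 0 with a replicate block and 0 to 2 with a library left out, and the cause was not tested. The replicate block called 7 members higher and 1754 genes higher and, apart from the ATG conjugation gene, moved no count reported here by over 1.5 times. The labels do not say that replicate numbers pair the strains. The low counts of Gbp2b limit its value, and Gbp11 and Gbp2-ps had too few counts to be tested.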

Other observations

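The genes whose pattern over the 6 libraries was most like the mean log2 CPM of the members were the immunoglobulin variable genes Igkv8-24, Ighv1-63 and Ighv1-52, with Gm12970 and Ggt5, with Pearson correlations of 0.998 to 0.999. Ggt5, an enzyme gene of leukotriene metabolism, rose by 1.16 on the log2 scale, and the other genes named here by 7.16 to 8.15. The 6 points share the strain difference, and 9.03% of the 19544 other genes had a correlation over 0.9.

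Among the chromosome 3 members, the ISRE core began 45 to 59 bases before the RefSeq start in the 3 genes that rose and 137 and 165 bases before it in the 2 that did not pass the test. For Gbp3 this counts from the first of its 2 RefSeq starts, as the window of the second held no core. The arrangement was noticed after the values were seen, rests on 5 genes, and was not tested.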
